A study of Mus musculus with 8 samples.

Results

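Of the genes that mark the lining of the stomach, 7 that are neither gastrokines, trefoil factors nor mucins were followed through mouse colonic tumors: Anxa10, Ctse, Cldn18, Vsig1, Aqp5, Pgc and Psca. They were chosen by name, and each had to have a probe set annotated with exactly 1 gene symbol. All 7 were found, each with 1 probe set, among 19938 genes with such a probe set. Each value is a signal on the log2 scale, summarised by RMA (robust multi-array average), so a difference of 1 is a doubling of signal. Signals of different probe sets are not comparable in absolute terms, and levels are therefore compared between arrays for the same gene or list of genes. Where different genes are read side by side or ranked on an array, this is a rough guide only.

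The tumors came from 8 samples with 1 array each, and no normal colon or stomach was among them. K-rasG12D tumors (3 arrays) were induced with the colon carcinogen azoxymethane (AOM) in the distal colon of mice labelled K-rasG12Dint. LSL tumors (2 arrays) were also AOM-induced and distal, in mice labelled LSL-K-rasG12D/+, where LSL is the usual short form of lox-stop-lox, a block on expression that a recombinase can take out. Serrated tumors (3 arrays) came from the proximal colon of mice labelled K-rasG12Dint and Ink4a/Arf-/-. AOM is named for both distal groups and not for the serrated one. All 3 groups thus carry a K-rasG12D allele in their label. The recombinase, the promoter that drives it, the ages of the mice and whether arrays of a group came from separate animals are not given in the sources used here. In any comparison with the serrated group, the Ink4a/Arf genotype, the colon segment, AOM and the type of tumor cannot be told apart.

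The stomach lining is made of surface (pit) cells that secrete mucus, mucous neck and gland cells below them, acid-secreting parietal cells and enzyme-secreting chief cells, and healthy colon epithelium has none of these cells. The 7 genes cover several tasks of that lining. Cldn18 and Vsig1 encode proteins of cell junctions. Psca encodes a small surface protein with a lipid anchor, and Aqp5 a water channel. Ctse and Pgc encode aspartic proteases, the first kept inside cells and the second secreted as a pepsinogen. Anxa10 encodes a member of the annexins, which bind membranes in a calcium-dependent way.

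Colon epithelium markers were present in every group, with a mean level over 11 genes of 9.87 to 9.93 on serrated arrays, 8.16 to 9.01 on K-rasG12D AOM arrays and 8.62 to 8.65 on LSL AOM arrays. Cdx2, the intestinal identity factor, stood higher in serrated than in AOM tumors by 2.56 ± 0.27 on the log2 scale (standard error, SE; limma adjusted p = 0.00130). In that comparison 5 of 11 colon and 5 of 7 small-intestinal epithelium genes rose and 0 fell. Of 6 macrophage and dendritic cell genes 3 fell, and of 5 fibroblast genes 2 fell. Markers of smooth muscle (5 genes), endothelium (4) and red cells (3) held 0 that passed. Serrated replicate 1 stood apart from the other arrays, with a standard deviation (SD) over all genes of 1.77 against 2.00 to 2.13 elsewhere.

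In serrated tumors 3 of the 7 genes rose against the mean of both AOM groups, namely Cldn18, Anxa10 and Psca. The other 4, Aqp5, Pgc, Vsig1 and Ctse, had positive differences that did not pass, and 0 fell. A gene passed at a limma p-value under 0.05 after Benjamini-Hochberg adjustment over all genes. Of all genes, 9.38% passed in this comparison and 3.62% rose. The median log2 difference of the 7 genes was 2.02, and that of all genes was 0.04. All 3 serrated arrays lay above all 5 AOM arrays for Cldn18, Pgc and Psca, a pattern that 7.24% of all genes showed. Serrated replicates 2 and 3 lay above all 5 AOM arrays for 7 of 7 genes, as they did for 13.0% of all genes. In bulk tumors, fewer cells that express a gene and less RNA per cell cannot be told apart.

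**Figure D1:**
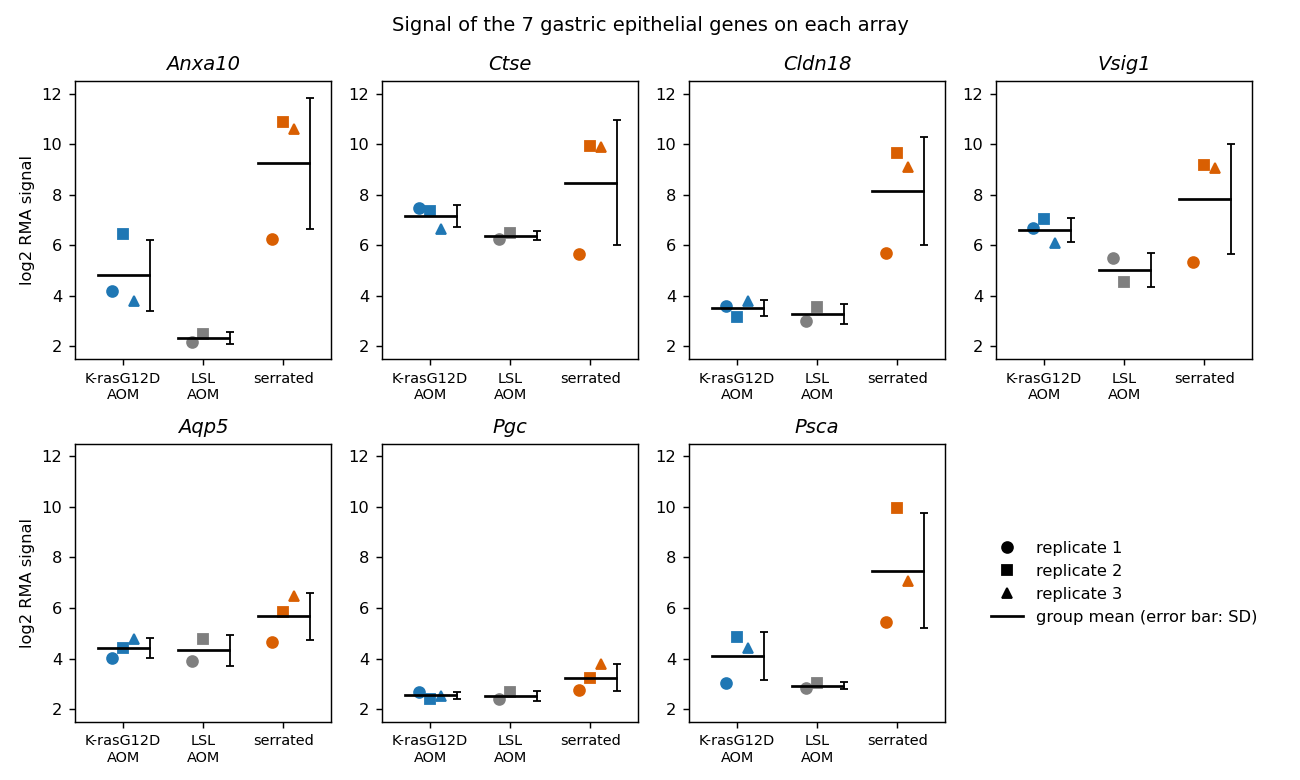
Log2 RMA signal of each of the 7 genes (vertical axis) on the 3 K-rasG12D AOM, 2 LSL AOM and 3 serrated arrays, with the group mean as a line and its SD as a bar; the marker shape gives the replicate number within its group. Serrated replicates 2 and 3 lie above the AOM arrays in every panel, while serrated replicate 1 lies among or below them for Anxa10, Ctse, Vsig1 and Aqp5.

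Cldn18, a claudin of tight junctions, had the smallest p among the 7. Its level was 3.59, 3.18 and 3.80 on the K-rasG12D AOM arrays, 2.99 and 3.55 on the LSL AOM arrays, and 5.71, 9.66 and 9.08 on the serrated arrays. The groups of tumor type did not overlap, but serrated replicate 1 lay 3.66 below the mean of the other serrated arrays. Cldn18 rose by 4.75 ± 0.77 (adjusted p = 0.00765), a 26.9-fold difference in signal. It was the only gene of the 7 to pass against K-rasG12D AOM tumors alone, where the difference was 4.62 ± 0.85 (adjusted p = 0.0167), and it also passed against LSL AOM tumors alone (4.88 ± 0.95, adjusted p = 0.0230). Against all AOM tumors it passed whichever array was left out, at 4.0 to 5.97. Against K-rasG12D AOM tumors the call was lost when K-rasG12D replicate 1 or 2 or serrated replicate 2 was left out (limma adjusted p of 0.0572, 0.0777 and 0.0595), and against LSL AOM tumors when serrated replicate 2 or either LSL array was (0.0674, 0.169 and 0.130).

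The gene has more than 1 transcription start, and the known upstream start serves lung while the downstream start serves stomach. The array has 1 probe set for Cldn18, and the values give the gene as a whole, so the start used in these tumors was not measured. The 250 bases before each start are shown because Cldn18 rose most clearly, from RefSeq on build GRCm38.p6, minus strand, with matches to 7 short words in capitals.
Cldn18 upstream start, chr9:99717268-99717517: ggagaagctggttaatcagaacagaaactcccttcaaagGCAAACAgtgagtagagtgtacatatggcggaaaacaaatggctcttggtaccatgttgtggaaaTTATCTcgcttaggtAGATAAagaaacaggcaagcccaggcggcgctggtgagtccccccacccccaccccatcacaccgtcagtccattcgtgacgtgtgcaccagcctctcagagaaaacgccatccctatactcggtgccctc
Cldn18 downstream start, chr9:99710064-99710313: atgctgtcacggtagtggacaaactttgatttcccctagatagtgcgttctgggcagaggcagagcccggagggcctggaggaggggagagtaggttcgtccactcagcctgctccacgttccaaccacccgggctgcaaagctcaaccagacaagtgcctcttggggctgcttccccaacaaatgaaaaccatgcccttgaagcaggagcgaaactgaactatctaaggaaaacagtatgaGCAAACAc

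The words were searched on both strands. Factors of the Cdx type bind TTTATG, those of the GATA type bind AGATAA, forkhead factors bind TGTTTAC or TGTTTGC, and Sox factors bind ACAAAG. The AP-1 word was TGANTCA, and that of the classical core promoter box was TATAAA. No 2 matches overlap in the sequences shown. The upstream window held AGATAA on both strands, a word found before 9.99% of all 32851 starts in the table. Both windows held TGTTTGC on the opposite strand, which 4.30% of all windows of this length hold. In the downstream window this match began 8 bases before the start. A match is a run of letters and does not show that a factor binds there.

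Anxa10 had the largest range of the 7 genes over the arrays, 8.71. Its level was 4.2, 6.43 and 3.81 on the K-rasG12D AOM arrays, 2.16 and 2.50 on the LSL AOM arrays, and 6.25, 10.86 and 10.60 on the serrated arrays. Serrated replicates 2 and 3 stood far above the rest, while serrated replicate 1 lay just below K-rasG12D replicate 2, so tumor types overlapped. Anxa10 rose by 5.67 ± 1.04 against all AOM tumors (adjusted p = 0.0130). This call was lost when serrated replicate 2 (4.86, adjusted p = 0.0663) or LSL replicate 1 (5.58, 0.0537) was left out. Against LSL AOM tumors it rose by 6.91 ± 1.29 (adjusted p = 0.0204), a call lost when serrated replicate 2 or either LSL array was left out (0.0675, 0.147 and 0.128). Against K-rasG12D AOM tumors the difference of 4.43 ± 1.15 did not pass (adjusted p = 0.0570). Without serrated replicate 1 that last difference was 5.92 ± 0.67 and passed (adjusted p = 0.00213).

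The window before the Anxa10 start is shown because Anxa10 is the gene with the largest rise of the 7 and its window holds more than 1 AP-1 word.
Anxa10, chr8:62123194-62123443, GRCm38.p6, minus strand: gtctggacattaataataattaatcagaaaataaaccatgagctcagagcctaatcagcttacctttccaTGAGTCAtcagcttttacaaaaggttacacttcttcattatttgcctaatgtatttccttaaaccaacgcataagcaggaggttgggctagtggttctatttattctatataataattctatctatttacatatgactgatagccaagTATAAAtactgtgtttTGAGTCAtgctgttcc
TGANTCA matched at 180 to 174 and at 16 to 10 bases before the start, and TATAAA at 32 to 27 bases before it. Of all windows, 6.75% hold at least 1 match to TGANTCA and 12.4% at least 1 to TATAAA. The Anxa10 window was shown partly for its TGANTCA matches, so the first share does not weigh them. Both Anxa10 and Pgc held TATAAA a short way before the start, in Pgc at 31 to 26 bases, where a TATA box usually lies. The Vsig1 window held 1 match, to ACAAAG, and the Aqp5 window, with 78.4% G and C, held 0 of the 7 words. The table held 6 starts of 5 of the genes, and no start of Ctse or Psca was used here.

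Psca, a relative of the Ly6 surface proteins found in stomach, bladder and prostate epithelium, was the third gene that rose. Its level was 3.02, 4.84 and 4.40 on the K-rasG12D AOM arrays, 2.84 and 3.02 on the LSL AOM arrays, and 5.43, 9.94 and 7.07 on the serrated arrays. Tumor types did not overlap, and Psca was the only gene of the 7 for which serrated replicates 2 and 3 lay more than 1 log2 unit apart, with replicate 3 at 2.87 below replicate 2. It rose by 3.97 ± 0.87 against all AOM tumors (adjusted p = 0.0259). Leaving out K-rasG12D replicate 1 (adjusted p = 0.0555), LSL replicate 1 (0.0874) or LSL replicate 2 (0.0779) ended this call. Against LSL AOM tumors it rose by 4.55 ± 1.08 (adjusted p = 0.0454), a call that was lost when any array other than serrated replicates 1 and 3 was left out (0.0527 to 0.246). Against K-rasG12D AOM tumors its difference of 3.39 ± 0.97 did not pass (adjusted p = 0.0753).

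Psca is also expressed by stratified squamous epithelium, and markers of that tissue were high on some of the same arrays. Over 9 squamous genes the mean level was 6.42 on serrated replicate 2, against 3.67 and 3.85 on serrated replicates 1 and 3. It was 3.97, 5.13 and 4.74 on the K-rasG12D AOM arrays and 3.73 and 4.05 on the LSL AOM arrays. The basal keratin Krt5 read 8.73 on serrated replicate 2 and 2.82 on serrated replicate 3, and 6.92 on K-rasG12D replicate 2, the AOM array where Psca and Anxa10 were highest. Of the 9 squamous genes only the envelope protein Ivl rose against all AOM tumors (3.27 ± 0.78, adjusted p = 0.0341), and 0 fell. Against either AOM group alone 0 of the 9 passed. On serrated replicate 3, where Psca read 7.07, the squamous genes were mixed. Krt5 and Krt4 read 2.82 and 2.57, Krt14 and Krt13 read 4.88 and 5.72, and Ivl read 7.30, its highest value, against 2.24 to 2.79 on the AOM arrays. The part of squamous cells in the Psca values was not tested.

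Ctse, an aspartic protease of stomach surface cells and some immune cells, had the lowest of its 8 readings on a serrated array. Its level was 7.47, 7.37 and 6.66 on the K-rasG12D AOM arrays, 6.26 and 6.49 on the LSL AOM arrays, and 5.64, 9.91 and 9.88 on the serrated arrays. Serrated replicates 2 and 3 were within 0.04 of each other and above every AOM array, and serrated replicate 1 was below every AOM array. The difference from all AOM tumors was 1.71 ± 0.88, with a 95% confidence interval of -0.30 to 3.71 (adjusted p = 0.271). Without serrated replicate 1 it was 3.13 ± 0.23 and passed (adjusted p = 0.000241). Lymphocyte markers, 5 genes, had a mean level of 3.45 to 4.02 on serrated, 3.13 to 4.04 on K-rasG12D AOM and 2.85 to 3.20 on LSL AOM arrays. None of the 5 passed against all AOM or K-rasG12D AOM tumors, and Cd3g, a part of the T cell receptor complex, rose against LSL AOM tumors (1.59 ± 0.37, adjusted p = 0.0417). The part of lymphocytes in the Ctse values was not tested.

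Vsig1, an immunoglobulin-type junction protein of stomach glands, was also high on serrated replicates 2 and 3 and not on replicate 1. Its level was 6.69, 7.04 and 6.11 on the K-rasG12D AOM arrays, 5.49 and 4.56 on the LSL AOM arrays, and 5.32, 9.16 and 9.05 on the serrated arrays. Serrated replicate 1 lay below all K-rasG12D AOM arrays and between the LSL AOM arrays. The difference from all AOM tumors was 2.02 ± 0.81 (95% confidence interval 0.19 to 3.85, adjusted p = 0.161), and 3.28 ± 0.31 without serrated replicate 1 (adjusted p = 0.000689).

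Aqp5, a water channel of gland cells including those of the pylorus, and Pgc, the pepsinogen C of gland and chief cells, moved least. Aqp5 read 4.01, 4.43 and 4.79 on the K-rasG12D AOM arrays, 3.89 and 4.77 on the LSL AOM arrays, and 4.66, 5.85 and 6.49 on the serrated arrays. Serrated replicate 1 lay within the AOM range, and the difference of 1.30 ± 0.40 did not pass (95% confidence interval 0.38 to 2.22, adjusted p = 0.0802). Pgc read 2.69, 2.39 and 2.53, then 2.39 and 2.67, and 2.74, 3.22 and 3.80 in the same order. Serrated replicate 1, at 2.74, was barely above the highest AOM array, at 2.69, and the difference of 0.72 ± 0.23 did not pass (95% confidence interval 0.19 to 1.25, adjusted p = 0.0925). On the 5 AOM arrays Pgc lay between the 21.6 and 25.8 percentile of all genes on its array, and at 20.1, 34.1 and 45.4 on the serrated arrays. By this rank serrated replicate 1 lay below every AOM array, so the counts of non-overlapping genes include Pgc only on the signal scale. Folds from such dim signals are uncertain.

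**Figure D2:**
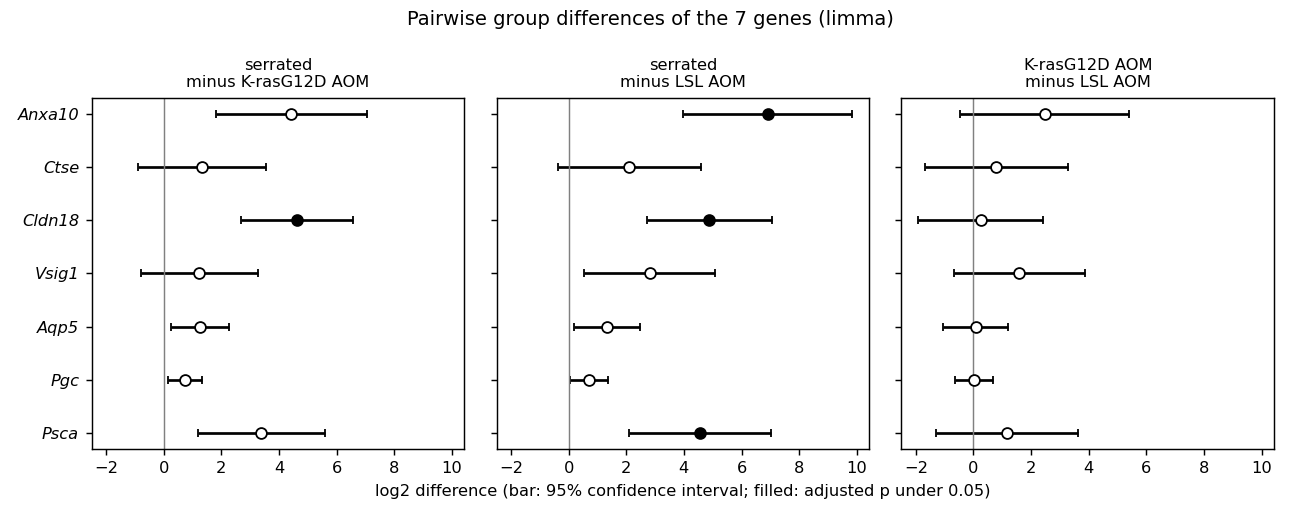
Log2 difference of each gene (horizontal axis, with its 95% confidence interval from limma) for serrated minus K-rasG12D AOM, serrated minus LSL AOM and K-rasG12D AOM minus LSL AOM tumors; filled points passed. Cldn18 passed in both serrated comparisons, Anxa10 and Psca in that with LSL AOM tumors, and no gene passed between the AOM groups.

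Set against each AOM group, 1 of the 7 genes rose relative to K-rasG12D AOM tumors, where 6.45% of all genes passed and 2.46% rose. Relative to LSL AOM tumors 3 rose, where 5.71% passed and 2.31% rose. All 3 serrated arrays lay above the K-rasG12D AOM arrays for 3 of the 7, Cldn18, Pgc and Psca (12.0% of all genes), and above the LSL AOM arrays for those and Anxa10 (15.6%). The comparisons share the serrated arrays, and their difference is the difference between the AOM groups. Without LSL replicate 1, LSL replicate 2 or serrated replicate 2, 0 of the 3 genes passed against LSL AOM tumors. Against LSL AOM tumors, 6 of the 7 genes and 4044 of the 19938 genes had an unadjusted limma p under 0.05. Against K-rasG12D AOM tumors these counts were 5 and 4344.

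Between the AOM groups 0 of the 7 genes passed, and limma called 0.0% of all genes. At an unadjusted p under 0.05 there were 1666 genes, 0 of them among the 7. The 3 K-rasG12D AOM arrays nevertheless lay above both LSL AOM arrays for Anxa10, Ctse and Vsig1, as they did for 16.4% of all genes. Anxa10 differed by 2.48 ± 1.29 (95% confidence interval -0.45 to 5.41, adjusted p = 0.706), Vsig1 by 1.59 ± 1.0 (-0.69 to 3.86, 0.799) and Ctse by 0.79 ± 1.10 (-1.69 to 3.27, 0.981). The fit gives each gene 1 spread over all groups, and for these genes most of it came from the serrated arrays. With the 5 AOM arrays fitted alone the SE fell to 0.69, 0.35 and 0.26, and the adjusted p was 0.166, 0.122 and 0.221. Cldn18, Aqp5 and Pgc differed by 0.25, 0.08 and 0.01.

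Of the 8 arrays, serrated replicate 1 was the one whose removal most changed how many of the 7 genes passed against the AOM tumors. All 7 were lower there than the mean of serrated replicates 2 and 3, by 0.77 for Pgc to 4.48 for Anxa10. Of all genes, 51.2% were lower, with a median of -0.02. For 2591 genes, these 7 included, serrated replicates 2 and 3 lay above all 5 AOM arrays. Of those, 77.9% were lower on serrated replicate 1, with a median of -0.44. Without serrated replicate 1, all 7 genes rose against all AOM, K-rasG12D AOM and LSL AOM tumors. Of all genes, 6.09%, 4.94% and 5.33% then rose. That array was picked out by the values of these same 7 genes. The p-values without it, here and above, are therefore no independent support. The median difference of the 7 genes from all AOM tumors was then 3.28, and Anxa10 and Cldn18 stood at 7.16 ± 0.62 and 5.97 ± 0.25 (adjusted p = 0.000468 and 1.88e-05). The SD over all genes was 1.77 on serrated replicate 1, against 2.00 to 2.13 elsewhere. The mean level of 7 small-intestinal genes was 5.92 on serrated replicate 1 and 6.54 and 5.73 on replicates 2 and 3. That of the colon markers was 9.92, 9.87 and 9.93 in the same order. Of smooth muscle genes the mean was 6.56 on replicate 1 and 5.51 and 5.46 on replicates 2 and 3. Whether the tissue taken or the array differed was not tested.

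**Figure D3:**
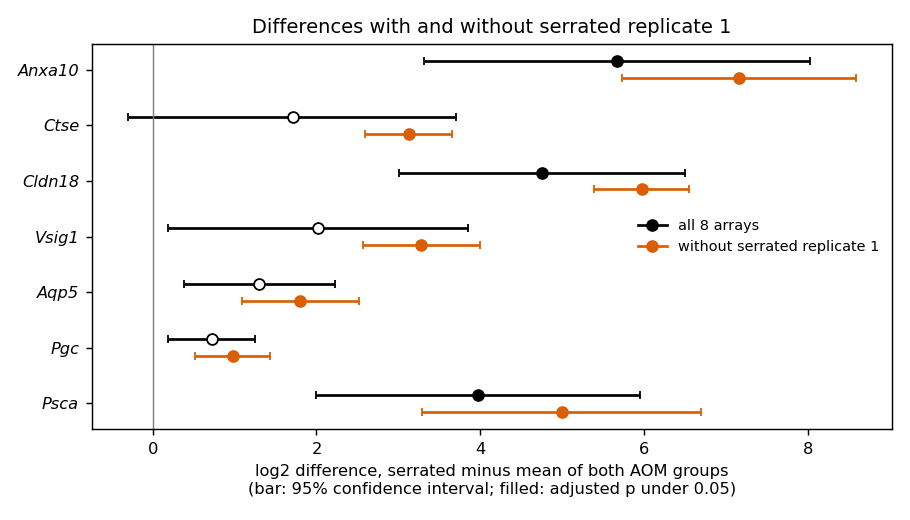
Log2 difference between serrated tumors and the mean of both AOM groups for each gene, with 95% confidence intervals from limma, for all 8 arrays (black) and without serrated replicate 1 (orange); filled points passed. With all arrays 3 genes passed, and without serrated replicate 1 all 7 did. That array was picked out by the values of these same genes.

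Markers of stomach cell types were read beside the 7 genes. Of 5 pit cell genes, 5 rose in serrated tumors with a median of 6.41. Among them were the gastrokines Gkn1 (6.50 ± 0.62, adjusted p = 0.000872) and Gkn2 (7.06 ± 0.68, 0.000889) and the trefoil factor Tff1 (6.14 ± 0.62, 0.00103), which protects mucosa. Of 4 mucous neck and gland cell genes, Tff2 (6.16 ± 0.97, adjusted p = 0.00681) and Gkn3 (3.73 ± 0.94, 0.0416) rose, while Muc6 (3.64 ± 0.99, 0.0539) and A4gnt, which makes the sugar chain of gland mucin (1.76 ± 0.47, just at the threshold), did not pass. Of 4 chief cell genes 0 passed, with a median of 0.14 and a mean level of 2.04 to 2.46 on serrated and 1.96 to 2.15 on AOM arrays. Pga5, the main pepsinogen gene of chief cells, differed by 0.30 ± 0.19 (adjusted p = 0.357), and the intrinsic factor gene Cblif by 0.08 ± 0.17 (0.806). Of 5 parietal cell genes 0 passed, with a median of 0.15. The acid pump subunits Atp4a and Atp4b differed by -0.05 ± 0.19 and 0.15 ± 0.19 (adjusted p = 0.900 and 0.657). Of 4 stomach endocrine genes only Sst rose (1.19 ± 0.29, 0.0360). Of all genes, 3.62% rose in this comparison. Against either AOM group alone, 5 of 5 pit cell genes, 1 of 4 neck and gland cell genes and 0 of 4 endocrine genes rose.

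**Figure D4:**
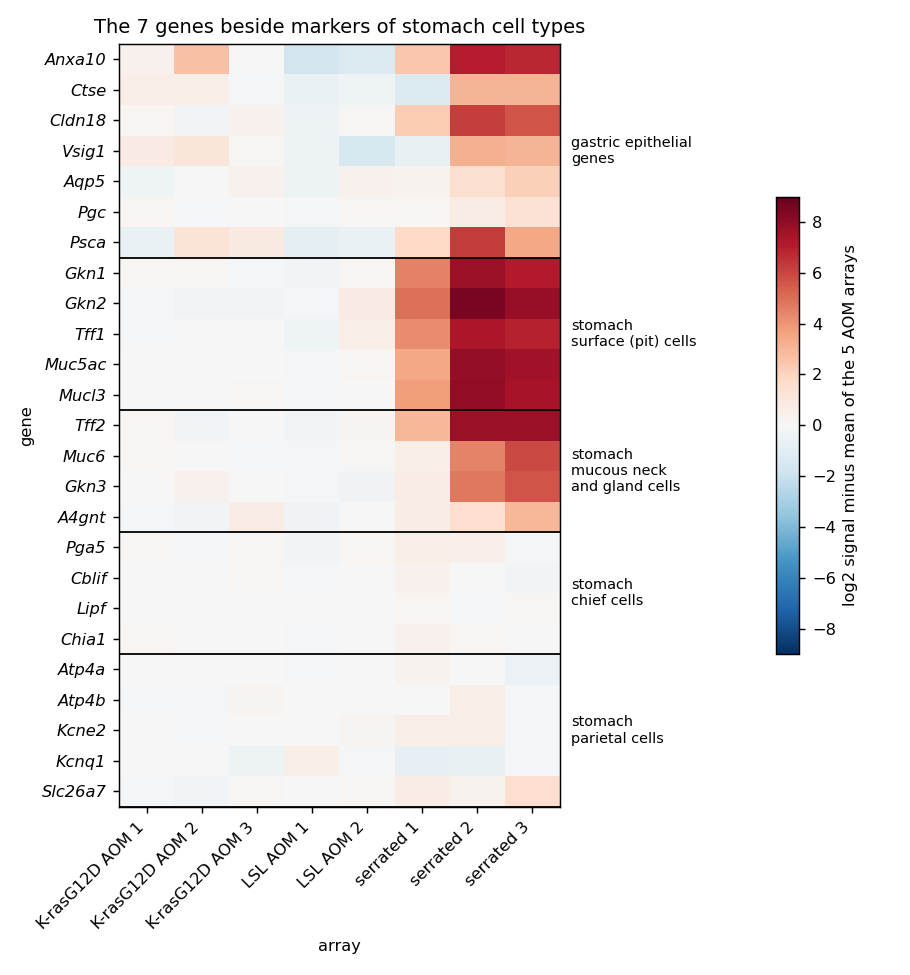
Log2 signal of the 7 genes and of pit, neck and gland, chief and parietal cell genes (rows) on each array (columns), each minus its mean over the 5 AOM arrays. Pit cell genes and Tff2 are raised on all 3 serrated arrays and most on replicates 2 and 3, while chief cell genes lie near 0 on every array.

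Within the serrated group the genes divided over replicates 2 and 3. Anxa10, Ctse, Cldn18, Vsig1 and Psca read higher on replicate 2, by 0.04 to 2.87, as did all 5 pit cell genes, by 0.33 to 0.73. Aqp5 and Pgc read higher on replicate 3, by 0.64 and 0.58. So did the 4 neck and gland cell genes, by 0.03 for Tff2 to 1.51 for A4gnt. Ctse and Tff2 thus hardly differed between these arrays. Of 4 chief cell genes only 1 read higher on replicate 3, of 5 parietal cell genes 2 and of 4 endocrine genes 0. Of all genes, 48.7% read higher on replicate 3, and the median gene differed by -0.01. These are differences between single arrays, with no replicate of their own. The pancreatic enzyme genes had a mean level of 2.97 to 3.75 on serrated and 3.02 to 3.21 on AOM arrays. Against all AOM tumors 0 of 8 passed.

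Of 8 foregut and stomach transcription factors, Gata4, which acts in the stomach and upper small intestine, rose (2.01 ± 0.42, adjusted p = 0.0207). The endoderm factor Foxa2 fell by 1.07 ± 0.19 (0.0120), and the other 6 were not called. Gata4 read 4.77, 6.15 and 6.80 on the serrated arrays, and Pdx1, a factor of the pyloric stomach and duodenum, read 3.71, 5.72 and 6.68. Both were lowest on serrated replicate 1 and highest on replicate 3. The difference of Pdx1 from all AOM tumors, 1.35 ± 0.55, did not pass (adjusted p = 0.170). Sox2, the stomach factor best known for setting foregut identity, differed by -0.44 ± 0.52 (adjusted p = 0.632) and did not pass.

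Relatives of the 7 genes were compared between serrated and all AOM tumors in the same fit. Of 18 other claudins, Cldn15, a pore-forming claudin of the intestine, rose (1.06 ± 0.19, adjusted p = 0.0120), Cldn4 fell by 1.27 ± 0.22 (0.00967) and 16 did not pass, with a median of 0.06. Of 11 other annexins 0 rose, and Anxa6 fell by 1.93 ± 0.23 (0.00201). Of 10 other aquaporins, Aqp8, a colonocyte water channel, rose (4.51 ± 0.89, 0.0173). Aqp3 differed by 2.48 ± 0.69 and did not pass (0.0565). Of 5 aspartic proteases other than Ctse and Pgc, 0 rose and the lysosomal Ctsd fell by 1.05 ± 0.27 (0.0461).

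Of 17 Ly6 and PSCA-related genes, Slurp1 (1.29 ± 0.25, adjusted p = 0.0155) and Ly6g6c (1.78 ± 0.47, 0.0490) rose and Ly6e fell by 2.01 ± 0.25 (0.00240). Of 13 junction and adhesion genes related to Vsig1, its nearest namesake Vsig2 alone rose (4.22 ± 0.78, 0.0137). Vsig2 read 3.85, 3.91 and 3.68 on the K-rasG12D AOM arrays, 3.11 and 3.40 on the LSL AOM arrays and 5.21, 9.15 and 8.91 on the serrated arrays. Unlike Vsig1, it read higher on all 3 serrated arrays than on any AOM array.

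**Figure D5:**
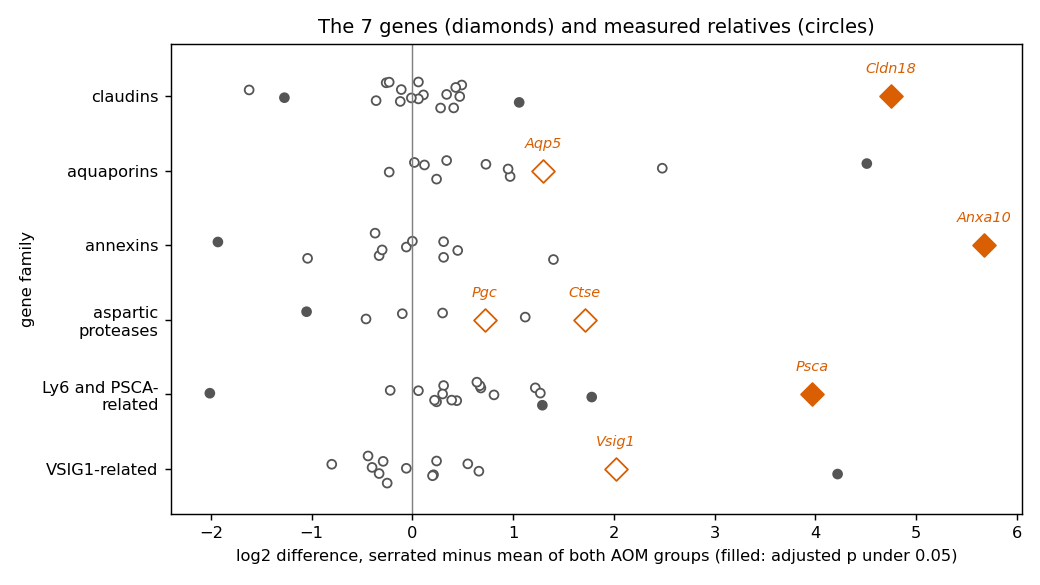
Log2 difference between serrated tumors and the mean of both AOM groups (horizontal axis) for the 7 genes (orange diamonds) and the measured relatives in each family (grey circles); filled symbols passed. Cldn18, Anxa10 and Psca lie to the right of every relative in their own family, while Aqp8 and Vsig2 lie to the right of Aqp5 and Vsig1.

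Likeness of pattern was measured as Pearson's r over the 8 arrays, among 1696 genes whose signal ranged over at least 2 log2 units. It is given as a description, since the arrays of a group share their tumor type. The genes most like Cldn18 were Tff2 (r = 0.997), Muc5ac (0.996) and Mucl3 (0.994), all on the stomach pit or gland lists. The nearest to Anxa10 were Ppp2r3a (0.991), Prelid2 (0.980) and the intestinal transcription factor Isx (0.979). Those nearest to Psca were Bcas1 (0.981), Lncpint (0.974) and Ly6g6c (0.972), the last a Ly6 relative. Ctse was nearest to Etnk1 (0.975), 2210407C18Rik (0.968) and the caveolin Cav2 (0.967), and Cav2 was also among the 3 nearest to Vsig1 (0.977), after 4931406C07Rik (0.984) and the sodium-proton exchanger Slc9a4 (0.978). Aqp5 was nearest to Pik3c2g (0.966), Trap1a (0.956) and Prl2c5 (0.953), and Pgc to Ces1e (0.987), the urothelial plaque gene Upk1b (0.978) and Kcnk10 (0.975).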

How the data were processed

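Transcripts of 8 mouse colonic tumors were measured on 1 Affymetrix array each. The deposited values are log2 signals made with GCOS and RMA, per the submitters' processing notes; versions, settings and genome build are not given in the sources used here, and the log2 scale was read from the range of 0.564 to 13.5. Probe sets were named from the platform annotation: 21789 of 35557 carried exactly 1 symbol, 1621 several and 12147 none. Where a gene had several probe sets (999 genes), that of highest mean signal stood for it, giving 19938 genes. No dim gene was removed.

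Group means of all 8 arrays were fitted with limma 3.58.1 in R 4.3.3 (trend and robust options off), with 1 spread per gene over the 3 groups. Spread was wider in serrated than in AOM tumors for these 7 genes, so their errors and p-values against the serrated group are too small. P-values measure the spread between arrays, which may be technical. Benjamini-Hochberg adjustment ran over all genes of a comparison. The number of arrays limits precision. On simulated data with 200 changed genes, the fit for serrated against all AOM tumors recovered 57.5% of 2-fold and 97.1% of 4-fold changes. These were data of 19938 genes, and 5.96% of calls were false. The simulation gave each gene the same spread in all groups and no outlying array. Its rates therefore do not carry over to the 7 genes.

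The 7 genes, the lists and the words were chosen with earlier results of these data known. Named genes are the 7, up to 3 of smallest p from each list, and the 3 most alike of each; the keratins, Cd3g, Cblif, the acid pump genes, Muc6, Pdx1, Sox2 and Cdx2 were added after their values were seen where they fall outside that rule. Of the listed symbols, those without their own 1-symbol probe set were not analysed here. Counts of called genes stand beside each list, and no set test was run. Alternatives were limma's trend and robust options, array weights, leaving out dim genes, quantile normalization, averaging probe sets, fitting only the groups compared, pooling AOM arrays, and leaving out each array.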

Additional observations from a re-analysis of the deposited data

How the results depend on the processing

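Of the single-gene results, 337 kept direction and side of the threshold over the alternatives, 46 newly passed, 24 no longer passed and 9 changed sign. The sign changes were small differences between the AOM groups that did not pass. Aqp5 was -0.05 and -0.04 with array weights by the default and the gene-by-gene estimator, -0.01 after quantile normalization, -0.11 without K-rasG12D replicate 3 and -0.36 without LSL replicate 1. Cldn18 was -0.03 without LSL replicate 1, and Pgc -0.03 after quantile normalization, -0.07 without K-rasG12D replicate 1 and -0.13 without LSL replicate 1. Leaving out LSL replicate 2 gave the highest values of these 3, at 0.52 for Aqp5, 0.53 for Cldn18 and 0.15 for Pgc. With either estimator of array weights 7 genes passed against all AOM, K-rasG12D AOM and LSL AOM tumors. The default estimator stopped before it converged and gave serrated replicates 1, 2 and 3 weights of 0.168, 25.6 and 0.251. The gene-by-gene one, added after seeing the data, gave them 0.242, 3.15 and 0.38. With both, the serrated mean thus rested mostly on serrated replicate 2. The default called 10334, 9962, 6356 and, between the AOM groups, 123 of all genes, and the other 5759, 5677, 3670 and 58. Against K-rasG12D AOM tumors 3 of the 7 passed with the dimmest 40% of genes left out, which removed Pgc, and 2 after quantile normalization. Against LSL AOM tumors 0 passed with both groups fitted alone. Quantile normalization called 1949 and 1774 of all genes against K-rasG12D and LSL AOM tumors, in place of 1286 and 1138, and moved the share of higher calls against K-rasG12D AOM tumors from 38.1% to 48.3%. Fitting both groups alone called 332 genes against LSL AOM tumors and 4 between the AOM groups. Leaving out 1 array gave 1 to 7 of the 7 genes against all AOM tumors, 0 to 7 against K-rasG12D and 0 to 7 against LSL AOM tumors. Over all genes the counts were 643 to 3874, 390 to 3186, 176 to 2530 and, between the AOM groups, 0 to 4. The lone LSL array left is then assumed to vary like the other groups. Without LSL replicate 1 only Cldn18 passed against all AOM tumors. The cause was not tested. No paired analysis was possible because the labels carry no replicate number shared between groups.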
